A study of Homo sapiens with 24 samples.

Results

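The p53 target genes followed here are CDKN1A, PPM1D, XPC, AEN, BTG2, SESN1, GDF15, TP53I3, ZMAT3 and RRM2B, 10 genes that the transcription factor p53 is known to switch on. Every probe set whose annotation gave 1 of these symbols and no other was taken, which gave 28 of 49372 probe sets and 9 of the 10 genes, out of 18132 genes in all. The expression of BTG2 was not analysed here.

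RNA was measured in SJSA-1 and U2-OS, established lines of human osteosarcoma cells, after 6 h with 50, 200 or 800 nM THZ531, a covalent inhibitor of the transcription kinases CDK12 and CDK13, or with DMSO as the vehicle. Each of the 8 groups held 3 PrimeView arrays, which makes 24 arrays, and nothing in the labels says whether the 3 came from separate cultures, so the p-values measure only how far these arrays spread, possibly for technical reasons alone. Both lines are known to carry wild-type p53, SJSA-1 is known for an amplified MDM2 gene, and U2-OS is known for a truncated, stable form of the PPM1D protein. Each is a single line with no genotype varied within it, so a difference between them is between these lines.

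p53 is a stress sensor that binds DNA and raises the transcription of genes for cell cycle arrest, DNA repair, apoptosis and metabolism. MDM2 marks p53 for degradation and is itself a target, as is the phosphatase PPM1D, so that the response restrains itself. CDK12, with its partner cyclin K, phosphorylates RNA polymerase II and is known for keeping long genes, many of them for DNA repair, transcribed to their ends.

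All levels below are log2 intensities of the deposited values, and 1 probe set stood for each gene, the one with the highest mean over the 24 arrays. A gene was called active in a line when its mean over the DMSO arrays lay above log2(100), which is 6.64, and a change was called at an adjusted p under 0.05 in limma. By that rule 8 of the members, all but TP53I3, passed in SJSA-1 and 9 passed in U2-OS. The summed intensity of 7 leukocyte and endothelium markers stayed between 127 and 182.9 on every array, with 0 of 7 active in either line. Of 8 osteoblast markers 0 were active in SJSA-1 and 3 in U2-OS. The extraction text of the labels speaks of brain cortex, and of 9 neuron and glia markers 0 were active in SJSA-1 and 1, NEFL, in U2-OS. Their summed intensity was 604.3 to 635.8 at 800 nM in U2-OS, against 429 to 462.3 with DMSO, and 284.9 to 313.4 at 800 nM in SJSA-1, against 250.5 to 274.7 with DMSO, and its part in the results was not tested.

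A further set of values moved with treatment on the same arrays. The poly-A controls, transcripts of the kind that is spiked in before labelling, had a mean log2 intensity above that of the DMSO arrays by 0.51, 0.47 and 0.54 at 50, 200 and 800 nM in SJSA-1, and by 0.10, 0.55 and 0.94 in U2-OS. The hybridization controls differed from DMSO by 0.22, 0.18 and 0.21 in SJSA-1 and by -0.18, -0.096 and -0.061 in U2-OS. In U2-OS the 2 kinds of control thus moved in opposite directions. The group means of the poly-A controls ran from 5.11 with DMSO in U2-OS to 6.57 at 800 nM in SJSA-1. All of these means lay below the limit for an active gene. Whether the same amount of poly-A control was added for every array was not tested, so values under the poly-A shift depend on that. When each array was shifted by the poly-A controls alone, the median change of all active genes was -0.55, -0.49 and -0.53 in SJSA-1 and -0.11, -0.57 and -0.99 in U2-OS. With the 18 hybridization probe sets averaged in beside the 24 poly-A ones, that median was -0.43, -0.36 and -0.38 in SJSA-1 and 0.012, -0.29 and -0.56 in U2-OS. In the deposited values that median lay between -0.047 and 0.017, so that the changes below are relative to the bulk of genes, and in bulk RNA fewer cells and less RNA per cell cannot be told apart. Of the 18 falls called among the members against DMSO, 18 were still below 0 under either shift. Each shift moved every gene of a comparison by the same amount, downward except at 50 nM in U2-OS with both controls. Falls could thus hardly turn above 0, and their count does not show them to be steadier than the rises. Of the 15 rises, 11 were still above 0 with both kinds of control and 2 with the poly-A controls alone, both of them GDF15 in SJSA-1. Most of the 11 were no longer called, among them PPM1D at 800 nM in U2-OS (0.19, adjusted p = 0.121). With both controls the call stayed for GDF15 at 50 and 200 nM in SJSA-1 and for ZMAT3 at 800 nM in U2-OS. Of the 2 GDF15 rises, the one at 50 nM lost its call under the poly-A controls (0.25, adjusted p = 0.097).

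Before any inhibitor the lines already differed in most of these genes. In DMSO, 2 of 9 members were higher in SJSA-1 relative to U2-OS and 5 were lower, against 42.5% higher and 42.1% lower among the 7458 genes active in either line. Of the 5, TP53I3 was active in U2-OS alone and entered through that line, which left 4 lower among the 8 members active in both. TP53I3, a quinone oxidoreductase tied to oxidative stress in apoptosis, read 5.47, 5.54 and 5.64 in SJSA-1 and 7.84, 7.91 and 7.98 in U2-OS. RRM2B, the p53-inducible subunit of ribonucleotide reductase that supplies nucleotides for repair, read 6.91, 6.91 and 6.90 in SJSA-1 and 8.89, 8.82 and 8.73 in U2-OS. The difference of RRM2B was -1.91 on the log2 scale (SE 0.058, adjusted p = 1.7e-17), and that of TP53I3, given as a description since the limit on level was passed only by the line in which it was high, was -2.36. PPM1D differed by -1.48 (adjusted p = 5.8e-17), CDKN1A by -0.77 (adjusted p = 1.24e-10) and XPC by -0.58 (adjusted p = 9.48e-07), all lower in SJSA-1. GDF15, a secreted stress cytokine, was 3.33-fold higher in SJSA-1, with 8.38, 8.29 and 8.51 there against 6.70, 6.43 and 6.84 in U2-OS (adjusted p = 2.97e-12). AEN, the apoptosis-enhancing nuclease, was higher in SJSA-1 by 0.58 (adjusted p = 2.84e-09), a difference that was -0.34 when arrays were shifted by the poly-A controls alone. ZMAT3 and SESN1 did not pass the test at 0.16 (95% interval -0.020 to 0.35) and -0.010 (95% interval -0.21 to 0.19). The value of ZMAT3 was -0.31 under a shift by both controls (adjusted p = 0.0145) and -0.75 under the poly-A controls (adjusted p = 8.58e-06). That of SESN1 was -0.48 (adjusted p = 8.38e-05) and -0.92 (adjusted p = 4.11e-08) in the same order. With DMSO the poly-A controls themselves averaged 6.03 in SJSA-1 and 5.11 in U2-OS. ZMAT3 passed the test without U2-OS 50 nM replicate 3, which entered only the fit's estimate of spread (adjusted p = 0.0324). MDM2, which checks the labels of the lines, had a mean of 10.66 ± 0.10 in SJSA-1 and 7.18 ± 0.031 in U2-OS (SD, n = 3 each).

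**Figure D1:**
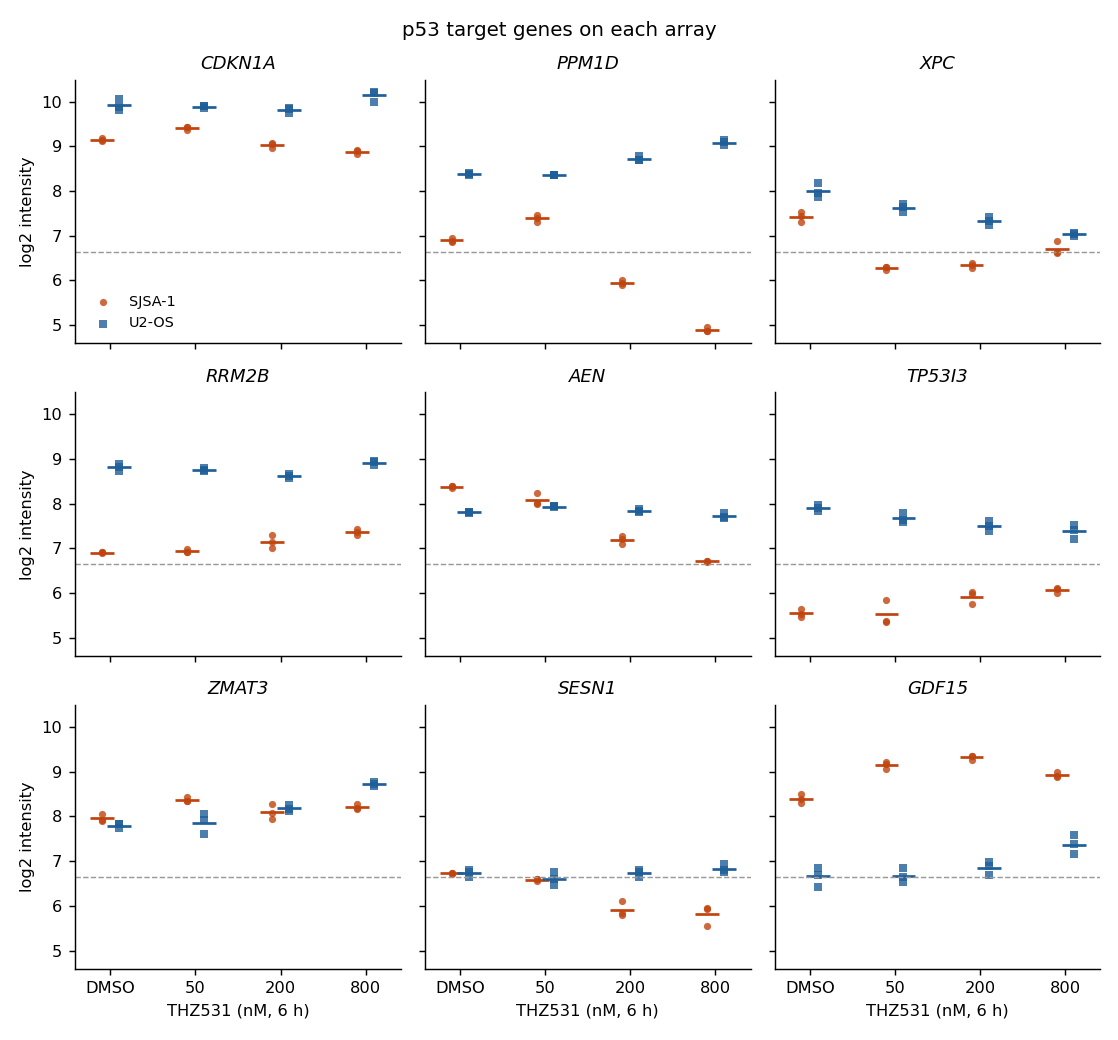
Log2 intensity (y axis) of 9 p53 target genes on each of 24 arrays by treatment (x axis: DMSO, then THZ531 at 50, 200 and 800 nM, 6 h each), with SJSA-1 as circles, U2-OS as squares, short lines for the group means of 3 arrays and a dashed line at log2(100). PPM1D runs down to 4.86 in SJSA-1 and up to 9.13 in U2-OS, whereas XPC lies below its DMSO arrays at every dose in both lines.

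THZ531 moved the members in both directions in either line. In SJSA-1, 4 of 8 active members rose and 2 fell at 50 nM, against 26.6% and 40.5% of the 6568 active genes. At 200 nM 2 rose and 5 fell, against 33.8% and 41.0%, and at 800 nM 3 rose and 5 fell, against 36.4% and 37.5%. The median change of the members was 0.15, -0.46 and -0.49 at the 3 doses, beside -0.047, -0.017 and 0.017 over all active genes. In U2-OS, 0 of 9 members rose and 1 fell at 50 nM, against 3.40% and 3.19% of the 6741 active genes, and at the limma p before adjustment AEN, TP53I3 and XPC lay under 0.05. At 200 nM 2 rose and 3 fell, against 18.2% and 25.0%, and at 800 nM 4 rose and 2 fell, against 25.3% and 36.5%. The members' medians there were -0.030, 0.00 and 0.11, beside -0.0067, -0.017 and -0.047 over all active genes. With so many genes called throughout, these counts alone do not set the members apart from other genes. The split of all genes also moved with scaling, and at 800 nM the poly-A shift called 0.396% higher and 77.7% lower in SJSA-1, and 0.386% higher and 94.3% lower in U2-OS.

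**Figure D2:**
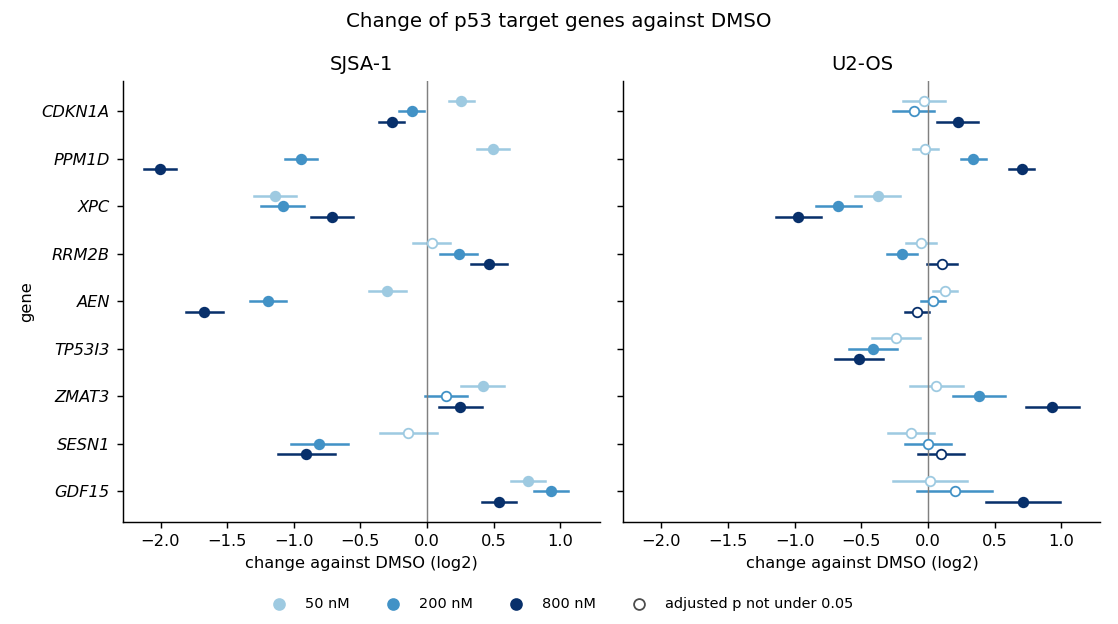
Change against DMSO on the log2 scale (x axis) of each p53 target gene (y axis) at 50, 200 and 800 nM in SJSA-1 (left) and U2-OS (right), with 95% intervals of the limma fit and open points where the adjusted p was not under 0.05. In the deposited values PPM1D reaches -2.0 in SJSA-1 and 0.70 in U2-OS at 800 nM (-0.24 in U2-OS when shifted by the poly-A controls), and TP53I3 is shown for U2-OS only.

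PPM1D, the phosphatase that turns p53 and its upstream kinases down, had the widest range of the members. In SJSA-1 its arrays read 6.88, 6.85 and 6.96 with DMSO, 7.40, 7.30 and 7.47 at 50 nM, 6.02, 5.94 and 5.89 at 200 nM, and 4.86, 4.96 and 4.86 at 800 nM. In U2-OS they read 8.37, 8.36 and 8.41 with DMSO, 8.36 on each array at 50 nM, 8.78, 8.69 and 8.69 at 200 nM, and 9.03, 9.13 and 9.09 at 800 nM. Every dose in SJSA-1 and the upper doses in U2-OS thus stood clear of the DMSO arrays, in opposite directions at 200 and 800 nM. PPM1D in SJSA-1 was 1.41-fold higher at 50 nM (change 0.49, SE 0.055, adjusted p = 3.63e-06, and -0.014 under the poly-A shift). It then fell 1.93-fold at 200 nM (adjusted p = 4.34e-09) and 4.01-fold at 800 nM (change -2.0, SE 0.055, adjusted p = 3.41e-12). The 800 nM mean of 4.89, or 29.7 on the linear scale, lay below the lowest array median of 30.1, and no detection call was used, so the size of that fold is less certain than its direction. U2-OS showed rises of 0.34 at 200 nM (SE 0.044, adjusted p = 6.89e-05) and 0.70 at 800 nM (SE 0.044, adjusted p = 3.94e-08), which became -0.21 and -0.24 under the poly-A shift. Between 50 and 200 nM PPM1D dropped by 1.44 in SJSA-1 (adjusted p = 9.18e-10), the largest step between doses of any member.

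CDKN1A encodes p21, the inhibitor of cyclin-dependent kinases through which p53 halts the cell cycle, and its changes were small. In SJSA-1 it read 9.11, 9.15 and 9.18 with DMSO, 9.42, 9.42 and 9.37 at 50 nM, 8.97, 9.08 and 9.04 at 200 nM, and 8.91, 8.83 and 8.90 at 800 nM. U2-OS gave 9.82, 9.87 and 10.05 with DMSO, 9.90, 9.86 and 9.89 at 50 nM, 9.74, 9.85 and 9.83 at 200 nM, and 10.22, 10.20 and 9.99 at 800 nM. In SJSA-1 each dose lay clear of the DMSO arrays, whereas in U2-OS the DMSO and 800 nM arrays overlapped. CDKN1A in SJSA-1 rose by 0.26 at 50 nM (SE 0.043, adjusted p = 0.000138), a value that was -0.13 under the shift by both controls and -0.25 under the poly-A shift. It then changed by -0.12 at 200 nM (adjusted p = 0.0246) and by -0.27 at 800 nM (SE 0.043, adjusted p = 9.26e-05). The call at 200 nM was lost without DMSO replicate 2 (-0.12, adjusted p = 0.0566), without DMSO replicate 3 (-0.10, adjusted p = 0.0842) or without 200 nM replicate 1 (-0.087, adjusted p = 0.0986), and with arrays centred on their median (-0.043, adjusted p = 0.351). U2-OS had a rise of 0.22 at 800 nM (SE 0.071, adjusted p = 0.0157), which was -0.29 and -0.72 under the 2 shifts. That call was lost without DMSO replicate 1 (adjusted p = 0.0698), DMSO replicate 2 (adjusted p = 0.0536), 800 nM replicate 1 (adjusted p = 0.0692) or 800 nM replicate 2 (adjusted p = 0.064).

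XPC, the protein that recognises damaged DNA for nucleotide excision repair, fell in both lines at every dose. Its SJSA-1 arrays read 7.52, 7.31 and 7.44 with DMSO, 6.24, 6.31 and 6.30 at 50 nM, 6.34, 6.40 and 6.28 at 200 nM, and 6.63, 6.89 and 6.61 at 800 nM. Those of U2-OS read 7.96, 7.87 and 8.18 with DMSO, 7.71, 7.64 and 7.53 at 50 nM, 7.23, 7.34 and 7.42 at 200 nM, and 7.04, 6.99 and 7.06 at 800 nM. No treated array of either line reached its DMSO arrays, but the order of the doses differed. In SJSA-1 the lowest arrays were at 50 and 200 nM, with falls of 2.2-fold (change -1.14, SE 0.073, adjusted p = 2.07e-08) and 2.12-fold (adjusted p = 2.16e-08). At 800 nM XPC was 1.64-fold below DMSO (adjusted p = 1.61e-06), which was 0.37 above the 200 nM arrays (SE 0.073, adjusted p = 0.00191). U2-OS went down with dose, with changes of -0.38 at 50 nM (SE 0.078, adjusted p = 0.018), -0.67 at 200 nM (adjusted p = 3.17e-05) and -0.97 at 800 nM (adjusted p = 3.19e-07). The call at 50 nM in U2-OS was lost without 50 nM replicate 2 (adjusted p = 0.0587) or 50 nM replicate 3 (adjusted p = 0.065).

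RRM2B had means in SJSA-1 of 6.91 ± 0.0058 with DMSO, 6.94 ± 0.036 at 50 nM, 7.14 ± 0.145 at 200 nM and 7.37 ± 0.070 at 800 nM (SD, n = 3 each). The rise was 0.24 at 200 nM (SE 0.063, adjusted p = 0.00424), with values of -0.11 and -0.23 under the 2 shifts, and 0.46 at 800 nM (adjusted p = 2.23e-05), with -0.080 under the poly-A shift. In U2-OS its means were 8.81 ± 0.080 with DMSO, 8.76 ± 0.040 at 50 nM, 8.62 ± 0.045 at 200 nM and 8.92 ± 0.046 at 800 nM (SD, n = 3 each). RRM2B in U2-OS thus changed by -0.20 at 200 nM (SE 0.051, adjusted p = 0.00786) and was 0.30 higher at 800 than at 200 nM (adjusted p = 0.000601). Its change of 0.11 at 800 nM missed the test (95% interval -0.0042 to 0.22, adjusted p = 0.0874) and passed it without DMSO replicate 1 (0.15, adjusted p = 0.0382).

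AEN, a nuclease that digests DNA and RNA during apoptosis, fell at every dose in SJSA-1, and in the deposited values no change against DMSO was called in U2-OS. Its SJSA-1 arrays read 8.36, 8.39 and 8.40 with DMSO, 7.99, 8.24 and 8.02 at 50 nM, 7.20, 7.28 and 7.09 at 200 nM, and 6.72, 6.70 and 6.71 at 800 nM. In U2-OS all 12 arrays lay between 7.69 and 7.94. The treated SJSA-1 arrays lay below DMSO with no overlap, and lower with each dose, whereas in U2-OS the 50 nM arrays lay just above DMSO and the 800 nM arrays just below it. AEN in SJSA-1 changed by -0.30 at 50 nM (SE 0.064, adjusted p = 0.00103), -1.19 at 200 nM (adjusted p = 1.98e-09) and -1.67 at 800 nM (adjusted p = 6.43e-11), which is 3.19-fold lower. In U2-OS the change was 0.13 (95% interval 0.036 to 0.22), 0.037 (-0.054 to 0.13) and -0.080 (-0.17 to 0.011) at the 3 doses, with adjusted p of 0.0955, 0.51 and 0.116, and only the step from 200 to 800 nM was called, at -0.12 (adjusted p = 0.0477). At 800 nM AEN in U2-OS was -0.59 under the shift by both controls (adjusted p = 1.68e-06) and -1.02 under the poly-A shift (adjusted p = 2.07e-08). At 200 nM it was -0.51 under the poly-A shift (adjusted p = 0.0062). The absence of a call in U2-OS thus holds for the deposited scale.

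The promoters of AEN and SESN1, the members that fell together in SJSA-1 with no call against DMSO in U2-OS, are shown because they held the p53 decamer consensus, the 10-base unit of a p53 response element. RefSeq windows on GRCh38.p14 reach from 250 bases before to 50 bases after a gene's start, and 12 windows were found for 9 of the 10 members, all but RRM2B. The consensus reads the same on both strands, so 1 search covered both. It was present in 1 window of AEN and in 1 of the 3 windows of SESN1, that is in 2 of 12, beside 6.63% of all 35116 windows. The 30 bases around each match follow, 5′ to 3′ on the strand of the gene, with the decamer in capitals. AEN lies on the plus strand at chr15:88621296-88621325 and the decamer starts 34 bases before the gene's start. SESN1 lies on the minus strand at chr6:109009018-109009047 and the decamer starts 49 bases before that start. The 10 bases before and the 10 after the decamer differed from the consensus at 5 and 2 positions in AEN and at 4 and 3 in SESN1. Bases beyond the windows were not searched, so the count covers the windows alone. A match describes these letters and is not a measured binding site.
AEN: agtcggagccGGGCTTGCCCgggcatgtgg
SESN1: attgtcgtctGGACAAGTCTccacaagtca

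SESN1 encodes a sestrin, which restrains growth signalling through mTORC1. Its SJSA-1 arrays read 6.73, 6.73 and 6.71 with DMSO, 6.56, 6.59 and 6.60 at 50 nM, 6.10, 5.85 and 5.79 at 200 nM, and 5.55, 5.94 and 5.96 at 800 nM. All 12 arrays of U2-OS lay between 6.46 and 6.94, so the groups there overlapped while the treated arrays of SJSA-1 were below DMSO. SESN1 in SJSA-1 changed by -0.14 at 50 nM (95% interval -0.35 to 0.074, adjusted p = 0.227), -0.81 at 200 nM (SE 0.098, adjusted p = 7.84e-06) and -0.91 at 800 nM (adjusted p = 2.71e-06). U2-OS changes were -0.13, 0.00 and 0.097, with 95% intervals of -0.30 to 0.045, -0.17 to 0.17 and -0.075 to 0.27. Under the shift by both controls SESN1 in U2-OS was -0.27 at 200 nM (adjusted p = 0.0402) and -0.41 at 800 nM (adjusted p = 0.000764). Under the poly-A shift it was -0.55 (adjusted p = 0.00358) and -0.84 (adjusted p = 3.03e-06). In SJSA-1 at 50 nM it was -0.52 (adjusted p = 2.42e-06) and -0.65 (adjusted p = 1.73e-05) under the 2 shifts. With DMSO means of 6.72 and 6.73, SESN1 lay just above the limit of 6.64 in both lines.

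GDF15, secreted by stressed cells, rose in SJSA-1 at every dose, though at 800 nM it was -0.0038 under the poly-A shift. Its arrays there read 8.38, 8.29 and 8.51 with DMSO, 9.22, 9.16 and 9.07 at 50 nM, 9.27, 9.35 and 9.35 at 200 nM, and 9.0, 8.89 and 8.91 at 800 nM. U2-OS gave 6.70, 6.43 and 6.84 with DMSO, 6.65, 6.53 and 6.84 at 50 nM, 6.90, 6.99 and 6.68 at 200 nM, and 7.58, 7.38 and 7.15 at 800 nM. All treated arrays of SJSA-1 stood above DMSO, and in U2-OS those at 800 nM did. In SJSA-1 GDF15 was 1.69-fold higher at 50 nM (change 0.76, SE 0.060, adjusted p = 1.4e-07) and 1.91-fold higher at 200 nM (change 0.93, adjusted p = 1.22e-08), and both stayed above 0 under the shifts, at 0.37 and 0.25 for 50 nM and 0.59 and 0.46 for 200 nM. The value of 0.25 for 50 nM, under the poly-A shift, was no longer called (adjusted p = 0.097). The rise was smaller at 800 nM, 0.54 (adjusted p = 3.23e-06), and the step from 200 to 800 nM was -0.39 (adjusted p = 0.000298). With both controls the rise at 800 nM was 0.14 and not called (adjusted p = 0.228). In U2-OS GDF15 was 1.64-fold higher at 800 nM (change 0.71, SE 0.13, adjusted p = 0.000363), a value of -0.23 under the poly-A shift. Its DMSO mean in U2-OS, 6.66, was barely above the limit for an active gene.

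ZMAT3, a zinc-finger protein that binds RNA and acts in growth arrest and apoptosis, had higher means than DMSO at each dose in the deposited values of both lines. In SJSA-1 these were 7.96 ± 0.091 with DMSO, 8.37 ± 0.058 at 50 nM, 8.10 ± 0.16 at 200 nM and 8.21 ± 0.055 at 800 nM (SD, n = 3 each). In U2-OS they were 7.79 ± 0.055, 7.86 ± 0.24, 8.18 ± 0.067 and 8.73 ± 0.040 in the same order (SD, n = 3 each). SJSA-1 thus had its highest arrays at 50 nM and U2-OS at 800 nM. ZMAT3 in SJSA-1 rose by 0.42 at 50 nM (SE 0.074, adjusted p = 0.000233), -0.091 under the poly-A shift, and by 0.25 at 800 nM (adjusted p = 0.00798), -0.15 and -0.29 under the 2 shifts. At 200 nM its change of 0.14 missed the test (adjusted p = 0.101) and passed it without DMSO replicate 3 (0.19, adjusted p = 0.0463) or without 200 nM replicate 3 (0.21, adjusted p = 0.0172). In U2-OS it rose by 0.38 at 200 nM (SE 0.091, adjusted p = 0.00467) and 1.91-fold, or 0.93, at 800 nM (adjusted p = 1.83e-06), at percentile 98.7 of the active genes, and these were -0.17 and -0.0063 under the poly-A shift.

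TP53I3 fell with dose in U2-OS and was not active in SJSA-1. Its U2-OS arrays read 7.84, 7.91 and 7.98 with DMSO, 7.79, 7.59 and 7.63 at 50 nM, 7.49, 7.40 and 7.61 at 200 nM, and 7.53, 7.22 and 7.42 at 800 nM. The change was -0.24 at 50 nM (adjusted p = 0.11), -0.41 at 200 nM (SE 0.083, adjusted p = 0.00177) and -0.52 at 800 nM (SE 0.083, adjusted p = 0.000143). In SJSA-1 the arrays lay between 5.36 and 6.11, below the limit at every dose, and no change there is given.

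Whether a member responded differently in SJSA-1 and U2-OS was tested directly, by subtracting the change in U2-OS from that in SJSA-1 in a fit of all 24 arrays. Of 8 members active in both lines, 4 were higher and 2 lower at 50 nM, against 19.8% and 33.4% of 5851 genes. At 200 nM 2 were higher and 4 lower, against 28.4% and 35.5%, and at 800 nM 2 were higher and 5 lower, against 35.2% and 31.3%. PPM1D had the largest difference at 800 nM, -2.71 (95% interval -2.85 to -2.57, adjusted p = 4.4e-18), after 0.51 at 50 nM (adjusted p = 1.53e-06) and -1.29 at 200 nM (adjusted p = 7.74e-13). AEN differed by -0.43, -1.23 and -1.59 at the 3 doses (adjusted p = 6.13e-05, 8.21e-12 and 7.08e-14). SESN1 differed by -0.81 at 200 nM (adjusted p = 2.08e-05) and -1.0 at 800 nM (adjusted p = 1.17e-06). GDF15 rose more in SJSA-1 by 0.74 at 50 nM (adjusted p = 0.000289) and 0.73 at 200 nM (adjusted p = 0.00025), while at 800 nM the difference of -0.17 had a 95% interval from -0.49 to 0.14. RRM2B was higher by 0.43 at 200 nM (adjusted p = 8.64e-05) and 0.36 at 800 nM (adjusted p = 0.000593), and the value at 200 nM was 0.36 under the shift by both controls and 0.52 under the poly-A shift, neither of them called. The poly-A shift reduced the differences of PPM1D and GDF15 at 50 nM to 0.11 and 0.33, neither of them called.

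For XPC, which fell in both lines, the difference between SJSA-1 and U2-OS turned with dose. It was -0.76 at 50 nM (95% interval -0.99 to -0.53, adjusted p = 6.11e-06), -0.41 at 200 nM (adjusted p = 0.00302, and -0.33 with no call under the poly-A shift) and 0.26 at 800 nM (95% interval 0.028 to 0.49, adjusted p = 0.0451). The call at 800 nM was lost without any of 10 arrays, among them U2-OS DMSO replicate 3 (0.17, adjusted p = 0.155), SJSA-1 DMSO replicate 2 (0.20, adjusted p = 0.128) and SJSA-1 800 nM replicate 2 (0.17, adjusted p = 0.161). CDKN1A differed by 0.29 at 50 nM (adjusted p = 0.00595), which was -0.12 under either shift, and by -0.49 at 800 nM (adjusted p = 2.48e-05). At 200 nM its difference was -0.010 (95% interval -0.18 to 0.16). ZMAT3 differed by 0.35 at 50 nM (adjusted p = 0.0193), a value of -0.050 and -0.054 under the 2 shifts and of 0.23 without U2-OS 50 nM replicate 3 (adjusted p = 0.0681), and by -0.68 at 800 nM (adjusted p = 5.07e-05). Under the poly-A shift the differences at 800 nM were -0.094 for CDKN1A and -0.29 for ZMAT3, and neither was called. The ZMAT3 difference of -0.24 at 200 nM missed the test (adjusted p = 0.088) and passed it without SJSA-1 200 nM replicate 1 (-0.33, adjusted p = 0.0207) or U2-OS 50 nM replicate 3 (-0.24, adjusted p = 0.0303).

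**Figure D3:**
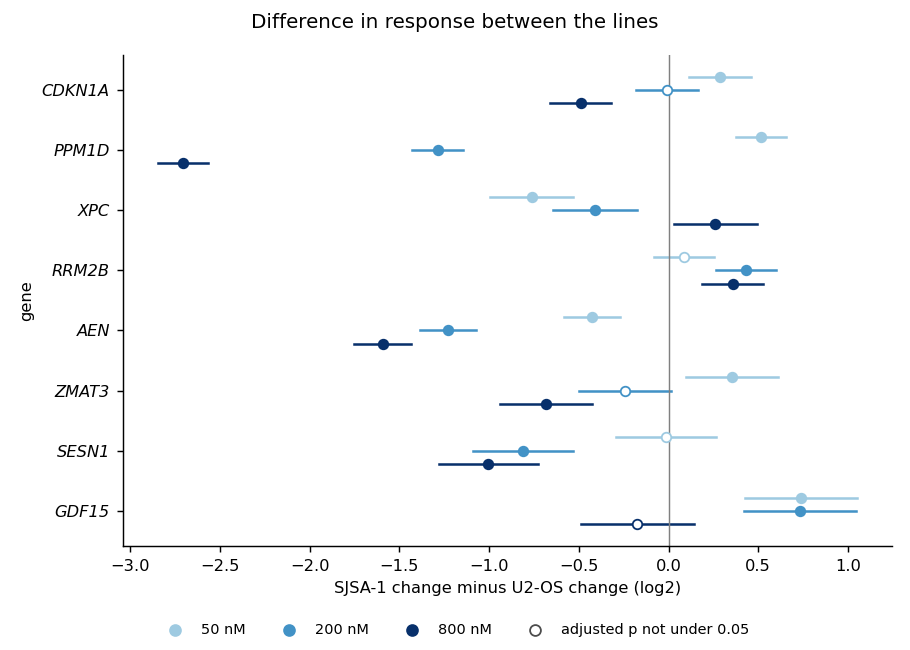
SJSA-1 change minus U2-OS change on the log2 scale (x axis) for the 8 p53 target genes active in both lines (y axis) at 50, 200 and 800 nM, with 95% intervals and open points where the adjusted p was not under 0.05. PPM1D lies at 0.51, -1.29 and -2.71 and XPC at -0.76, -0.41 and 0.26, while CDKN1A at 0.29 and ZMAT3 at 0.35 for 50 nM are -0.12 and -0.054 under the poly-A shift.

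The other probe sets of a member mostly moved with the one that stood for it. All 4 PPM1D probe sets were below DMSO at 800 nM in SJSA-1, with changes of -1.47 to -2.0, and all 4 were above it in U2-OS, by 0.44 to 0.75, with 1 active in SJSA-1 and 4 in U2-OS. The 5 probe sets of GDF15 were 0.34 to 0.81 above DMSO at 800 nM in SJSA-1, and 3 of them were active there. Both XPC probe sets were lower at each dose in each line. At 800 nM RRM2B was the exception, since of its 9 probe sets 8 lay above DMSO in U2-OS and 1 lay below it, at -0.24 (adjusted p over active probe sets = 0.0024). That probe set rose by 0.32 in SJSA-1 (adjusted p = 0.000334), but at 50 nM there it was at -0.22 (adjusted p = 0.00645), against 0.033 for the standing one. Lower doses held other disagreements. ZMAT3 at 200 nM in SJSA-1 had probe sets at 0.14 and -0.013. For CDKN1A at 200 nM in U2-OS only the probe set not standing for it was called, at -0.20 (adjusted p = 0.0296). The probe sets that stand for GDF15 and ZMAT3 carry the suffix x_at, which marks probes that may bind other transcripts, and AEN and TP53I3 rest on 1 probe set each.

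**Figure D4:**
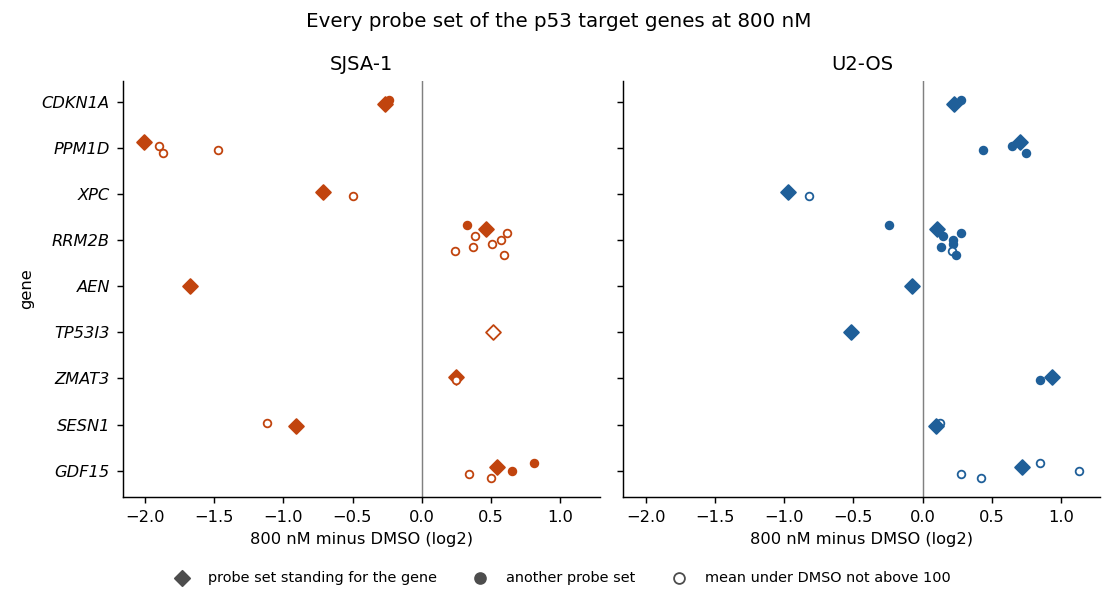
Difference between 800 nM THZ531 and DMSO on the log2 scale (x axis) for each of the 28 probe sets of the p53 target genes (y axis) in SJSA-1 (left) and U2-OS (right), with diamonds for the probe set standing for a gene and open symbols where the DMSO mean was not above 100. In the deposited values the 4 PPM1D probe sets lie below 0 in SJSA-1 and above 0 in U2-OS, where the standing one is -0.24 under the poly-A shift, and 1 of 9 RRM2B probe sets lies below 0 in U2-OS.

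Genes that act on p53 itself also changed at 200 nM, and of 6 regulators active in both lines 0 were higher and 5 lower in the difference of SJSA-1 minus U2-OS, against 28.4% and 35.5% of 5851 genes. Of 14 regulators with probe sets 9 were active in SJSA-1, of which 2 rose and 7 fell, and 7 were active in U2-OS, of which 4 rose and 1 fell. At this dose 33.8% of active genes rose and 41.0% fell in SJSA-1, and 18.2% and 25.0% in U2-OS. MDM2 read 10.19, 10.05 and 10.05 at 200 nM in SJSA-1 against 10.70, 10.74 and 10.55 with DMSO, a change of -0.57 (SE 0.094, adjusted p = 0.000122). In U2-OS it read 7.46, 7.41 and 7.48 against 7.15, 7.21 and 7.17 with DMSO, a change of 0.27 (SE 0.064, adjusted p = 0.00436) that was -0.00079 and -0.28 under the 2 shifts. Its 11 probe sets differed in direction at 200 nM in SJSA-1, with 9 below DMSO and 2 above it, between -1.08 and 0.57. At 800 nM there they lay between -0.69 and 0.95. In U2-OS 10 lay above DMSO and 1 below it at 200 nM, but only 1 of the 11 was active. MDM4, the relative of MDM2 that also binds p53, was active in neither line. SIRT1, a deacetylase that acts on p53, and ATR, the kinase that signals stalled replication, changed by -1.12 (adjusted p = 4.03e-08) and -0.88 (adjusted p = 1.77e-06) in SJSA-1 and were not active in U2-OS. CREBBP, a p53 acetyltransferase, fell by 0.93 in SJSA-1 (adjusted p = 5.11e-08) and was 0.42 higher in U2-OS (adjusted p = 0.000257, -0.13 under the poly-A shift). HIPK2, a kinase that acts on p53, changed by -0.60 in SJSA-1 (adjusted p = 4.2e-07) and -0.34 in U2-OS (adjusted p = 0.0075). CDK12, itself bound by THZ531, changed by -0.99 in SJSA-1 (adjusted p = 5.52e-08) and 0.90 in U2-OS (adjusted p = 8.73e-06), where it was 0.35 and not called under the poly-A shift. The difference of -1.89 between the lines passed the test (adjusted p = 1.22e-11). CDK13, tested in U2-OS alone, changed by -0.37 (adjusted p = 0.00377), and CCNK, which encodes cyclin K, was at 0.00 in SJSA-1 and 0.15 in U2-OS (adjusted p = 0.115, -0.40 under the poly-A shift).

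Further known p53 targets outside the 10 members also moved both ways at 200 nM. Among 12 genes of the cell cycle and growth with probe sets, 6 rose and 1 fell of 9 active in SJSA-1, and 2 rose and 2 fell of 10 active in U2-OS, to be read against the 33.8% higher and 41.0% lower of all active genes in SJSA-1 and the 18.2% and 25.0% in U2-OS. IER5, an immediate-early response gene, rose by 1.21 in SJSA-1 (adjusted p = 1.9e-10), GADD45A, a growth arrest protein, by 0.81 (adjusted p = 6.78e-10) and PLK2, a polo-like kinase, by 0.73 (adjusted p = 7.42e-09), each above 0 under both shifts. PLK2 was 0.26 there with no call under the poly-A shift (adjusted p = 0.0925). In U2-OS IER5, GADD45A and PLK2 were at 0.20 (adjusted p = 0.0325, -0.074 and -0.35 under the shifts), 0.013 (adjusted p = 0.871, -0.54 under the poly-A shift) and 0.29 (adjusted p = 0.00983, -0.26 under the poly-A shift). The call of IER5 in U2-OS was lost without DMSO replicate 1 (adjusted p = 0.0947), DMSO replicate 2 (adjusted p = 0.0756), 200 nM replicate 1 (adjusted p = 0.142) or 200 nM replicate 3 (adjusted p = 0.0893). PHLDA3, which restrains AKT, changed by -0.67 in SJSA-1 (adjusted p = 3.25e-05) and -0.28 in U2-OS (adjusted p = 0.00108). NINJ1, a membrane protein that ruptures dying cells, changed by -0.080 in SJSA-1 (adjusted p = 0.269) and -0.22 in U2-OS (adjusted p = 0.0117).

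Against the same shares of all active genes (33.8% and 41.0% in SJSA-1, 18.2% and 25.0% in U2-OS), the next 2 lists also held genes of both directions. In the apoptosis list of 10 genes, 3 rose and 2 fell of 7 active in SJSA-1, and 2 rose and 0 fell of 7 active in U2-OS, where FAS, at -0.22 (adjusted p = 0.0597), passed the test without DMSO replicate 1 (-0.29, adjusted p = 0.0272) or 200 nM replicate 3 (-0.26, adjusted p = 0.0482). PMAIP1, the pro-apoptotic protein NOXA, rose by 0.55 in SJSA-1 (adjusted p = 4.7e-08, but 0.21 and 0.084 with no call under the shifts) and by 0.27 in U2-OS (adjusted p = 0.000149, -0.0041 and -0.28 under the shifts). The death receptors TNFRSF10B and FAS fell in SJSA-1 by 0.56 (adjusted p = 5.32e-08) and 0.45 (adjusted p = 0.000159), although the mean of all TNFRSF10B probe sets changed by -0.012. TRIAP1, which restrains apoptosis, rose by 0.14 in U2-OS (adjusted p = 0.0218, -0.13 and -0.41 under the shifts), a call lost without DMSO replicate 2 (adjusted p = 0.0522) or 200 nM replicate 3 (adjusted p = 0.053). Of 9 repair and metabolism genes, 1 rose and 3 fell of 5 active in SJSA-1, and 3 rose and 1 fell of 5 active in U2-OS. DDB2, which like XPC recognises damage for nucleotide excision repair, changed by -0.19 in SJSA-1 (adjusted p = 0.00517) and by -0.43 in U2-OS (adjusted p = 6.77e-05). Its call in SJSA-1 was lost with arrays centred on their median (-0.12, adjusted p = 0.0554), with repeated quantile normalization (-0.079, adjusted p = 0.218) and in the methods' t-test after adjustment (adjusted p = 0.056). SCO2, which helps assemble cytochrome c oxidase, rose by 0.56 in SJSA-1 (adjusted p = 3.28e-06, but 0.21 and 0.087 with no call under the shifts) and by 0.34 in U2-OS (adjusted p = 0.00115, -0.21 under the poly-A shift). TIGAR, a regulator of glycolysis, changed by -0.33 in SJSA-1 (adjusted p = 0.00694, and -0.17 with no call after repeated quantile normalization) and 0.35 in U2-OS (adjusted p = 0.00135), where it was -0.20 under the poly-A shift and -0.61 as the mean of its probe sets. DRAM1, a lysosomal protein of autophagy, fell by 0.19 in SJSA-1 (adjusted p = 0.0425), and that call was lost without any of 7 arrays, with adjusted p up to 0.174.

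**Figure D5:**
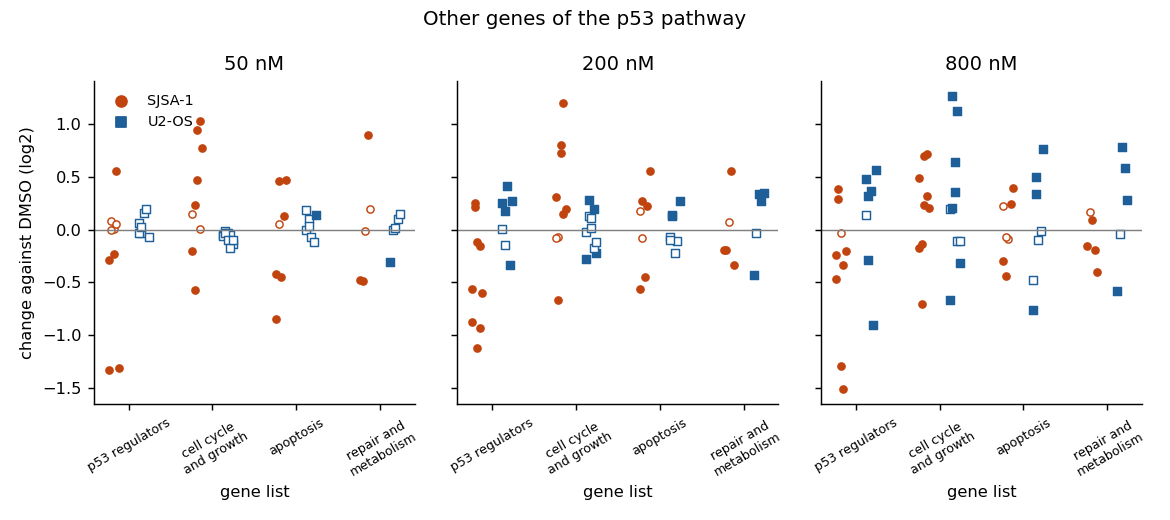
Change against DMSO on the log2 scale (y axis) of active genes in 4 lists of the p53 pathway (x axis) at 50, 200 and 800 nM, with SJSA-1 as circles, U2-OS as squares and open symbols where the adjusted p was not under 0.05. Values are as deposited, and several rises in U2-OS turn below 0 under the poly-A shift, among them IER5 (0.20 and -0.35) and PMAIP1 (0.27 and -0.28) at 200 nM.

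Among themselves the members did not move as 1 group over the 24 arrays. With each gene centred on the mean of its line, the closest pair was AEN and SESN1 (Pearson's r = 0.89), followed by PPM1D and AEN (0.85) and PPM1D and SESN1 (0.84). The most opposed pairs were XPC and GDF15 (-0.86) and RRM2B and AEN (-0.82). These values describe arrays that share doses and controls. The gene most like each member over the same arrays, out of 5850 active in both lines, was KIF1B for PPM1D (r = 0.99), ARID1A for AEN (0.99), FYTTD1 for ZMAT3 (0.97), TUT7 for XPC (0.97), ZNF384 for SESN1 (0.96), PHLDA2 for GDF15 (0.93), SCAMP1 for RRM2B (0.93) and METTL17 for CDKN1A (0.91). In the deposited values KIF1B changed by -1.25 in SJSA-1 and 0.57 in U2-OS at 800 nM, and ARID1A by -2.19 and -0.16.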

How the data were processed

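Per the labels and methods, the authors scanned 24 PrimeView arrays and made the deposited intensity values, on a linear scale, by RMA, which includes quantile normalization. MAS5 and RMA are named, without versions, in the submitters' processing notes, and the annotation build is not given in the sources used here. Arrays had median intensities between 30.1 and 33.6, and the number of arrays limits the precision. Of 49372 probe sets 44994 had 1 gene symbol, 1832 several and 2546 none, and only the first kind was used, with symbols updated through the Entrez ID for 44967 of them.

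Linear models (lmFit, eBayes; limma 3.58.1 under R 4.3.3) took log2 of the value with no pseudocount, per line over its 4 groups, and between lines over all 24 arrays. Benjamini-Hochberg adjustment ran over the active genes of the line (DMSO mean above log2(100)), over those active in both lines, or over those active in either for DMSO. The fit was tested on simulated data. Members and gene lists were chosen with earlier results of these data known. Named are the 10 members, MDM2 and MDM4, the targets of THZ531, up to 3 active genes of each list with the largest change at 200 nM in each line, and the gene most like each member; NEFL was chosen after its values were seen. Alternatives changed 1 choice at a time: the limit on level (none, or 200), the mean of all probe sets or each on its own, median centring, repeated quantile normalization, shifts by the 24 poly-A and 18 hybridization control probe sets, pseudocounts of 1 and 16, eBayes with trend and robust fitting, a fit of 2 groups at a time, a single fit of all 24 arrays, a replicate block, the methods' t-test, and leaving out each array. Same-numbered replicates did not deviate together in the median (correlation -0.057 in SJSA-1 and -0.048 in U2-OS), so they were not paired. Single pairs ran from -0.516 to 0.379 in SJSA-1 and from -0.445 to 0.363 in U2-OS. Promoter windows are RefSeq's, searched with Python 3.11.15, and figures were drawn with matplotlib 3.10.9.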

Additional observations from a re-analysis of the deposited data

Results flagged for a closer look

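A difference between the lines in the response to THZ531, tested in limma over 24 arrays with the change in U2-OS subtracted from that in SJSA-1, brought these results here. At 50 nM the differences on the log2 scale were 0.287 for CDKN1A, 0.513 for PPM1D, -0.763 for XPC, -0.427 for AEN, 0.353 for ZMAT3 and 0.74 for GDF15, with adjusted p between 1.53e-06 (PPM1D) and 0.0193 (ZMAT3). CDKN1A and ZMAT3 were -0.12 and -0.050 there when arrays were shifted by both kinds of control. At 200 nM they were -1.29 for PPM1D, -0.41 for XPC, 0.433 for RRM2B, -1.23 for AEN, -0.81 for SESN1 and 0.73 for GDF15, with adjusted p between 7.74e-13 (PPM1D) and 0.00302 (XPC). At 800 nM they were -0.49 for CDKN1A, -2.71 for PPM1D, 0.26 for XPC, 0.357 for RRM2B, -1.59 for AEN, -0.683 for ZMAT3 and -1.0 for SESN1, with adjusted p between 4.4e-18 (PPM1D) and 0.0451 (XPC).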

How the results depend on the processing

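With 3 arrays a group, small changes were the least settled. Over the members' results, 1114 values under other settings kept their direction and their side of the threshold, 36 lost the call, 26 gained it, 32 turned direction and 16 with no call on either side changed sign, and without 1 array in turn 1353 values stayed and 39 did not. The cause of these changes was not tested, beyond the smaller number of genes that some settings test. The pooled counts mix settings of unlike weight. All 84 member values stayed under either pseudocount, under trend and robust fitting, and with each probe set on its own, which kept the same standing probe sets. Under the shift by both controls 51 stayed, and under the poly-A shift 43.

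The turns in direction came with the shifts by control probe sets, except for TIGAR in U2-OS at 200 nM, which was -0.61 as the mean of its probe sets. Under the shift by both kinds of control, CDKN1A was -0.13 at 50 nM in SJSA-1, -0.12 for the line difference at 50 nM and -0.29 at 800 nM in U2-OS. RRM2B was -0.35 at 50 nM and -0.11 at 200 nM in SJSA-1 and -0.40 at 800 nM in U2-OS, and SESN1 was -0.41 at 800 nM in U2-OS. ZMAT3 was -0.31 between the DMSO groups, -0.15 at 800 nM in SJSA-1 and -0.050 for the line difference at 50 nM. At 200 nM in U2-OS IER5 was -0.074, MDM2 -0.00079, PMAIP1 -0.0041 and TRIAP1 -0.13, and in SJSA-1 TRIAP1 was -0.071.

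Under the poly-A controls alone, AEN was -0.34 between the DMSO groups and -0.51 at 200 nM in U2-OS. CDKN1A was -0.25 at 50 nM in SJSA-1, -0.12 for the line difference at 50 nM and -0.72 at 800 nM in U2-OS. PPM1D was -0.014 at 50 nM in SJSA-1, and -0.21 at 200 nM and -0.24 at 800 nM in U2-OS. GDF15 at 800 nM was -0.0038 in SJSA-1 and -0.23 in U2-OS. RRM2B was -0.47, -0.23 and -0.080 at 50, 200 and 800 nM in SJSA-1 and -0.83 at 800 nM in U2-OS, and SESN1 was -0.84 there. ZMAT3 was -0.75 between the DMSO groups, -0.091, -0.33 and -0.29 at the 3 doses in SJSA-1, -0.17 and -0.0063 at 200 and 800 nM in U2-OS, and -0.054 for the line difference at 50 nM. At 200 nM in U2-OS CCNK was -0.40, CREBBP -0.13, GADD45A -0.54, IER5 -0.35, MDM2 -0.28, PLK2 -0.26, PMAIP1 -0.28, SCO2 -0.21, TIGAR -0.20 and TRIAP1 -0.41, and in SJSA-1 TRIAP1 was -0.20.

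The number of members called moved mostly where fewer could be tested. With a DMSO mean above 200 it was 3 of 4 at 200 nM and 4 of 4 at 800 nM in SJSA-1, and 3, 1 and 3 of 3 for the line difference at the 3 doses. With the mean of all probe sets it was 3, 2 and 3 of 3 in SJSA-1, 3, 2 and 3 of 3 for the line difference, and 2 of 7 at 50 nM in U2-OS. Both shifts gave 5 of 8 at 800 nM in SJSA-1 and 0 of 9 at 50 nM in U2-OS, and the line difference at 50 nM had 3 of 8 with both controls and 2 of 8 with the poly-A controls. At 50 nM in U2-OS repeated quantile normalization called 2, a fit of only the groups compared 0, and the methods' t-test 3 before and 0 after adjustment. Without each array in turn, the count was 6 to 6, 6 to 8 and 8 to 8 at the 3 doses in SJSA-1, 0 to 1, 5 to 5 and 5 to 6 in U2-OS, 5 to 6, 5 to 7 and 6 to 7 for the line difference, and 7 to 8 between the DMSO groups.

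The array titles give replicate numbers but do not say what same-numbered replicates shared. With a replicate block the counts of members called stayed within 1 of the values in the report, and the calls lost were XPC for the line difference at 800 nM (0.26, adjusted p = 0.0579), DRAM1 in SJSA-1 at 200 nM (-0.19, adjusted p = 0.0609) and IER5 in U2-OS at 200 nM (0.20, adjusted p = 0.0545), with no other call changed among the named genes.

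Over all genes, the share of higher among called genes in SJSA-1 at 50, 200 and 800 nM was 39.6%, 45.2% and 49.3%, against 4.19%, 3.16% and 2.63% under the shift by both controls and 2.25%, 1.21% and 0.507% under the poly-A shift. In U2-OS it was 51.6%, 42.1% and 40.9%, against 49.1%, 2.50% and 3.52%, and 25.0%, 0.106% and 0.408%. For the line difference it was 37.2%, 44.4% and 52.9%, against 2.41%, 22.8% and 58.7%, and 2.08%, 26.8% and 78.9%. Between the DMSO groups it was 50.2%, against 21.9% and 8.0%. Median centring gave 60.5% at 800 nM in SJSA-1 and 61.7% at 50 nM in U2-OS. The percentage of genes called at 50 nM in U2-OS ran between 0.0445% with the methods' t-test after adjustment and 16.8% before it.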
